A study of Mus musculus with 55 samples.

Results

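The genes described here are the 10 named writers and erasers of histone H3 lysine 4 methylation, 6 methyltransferase genes (Kmt2a, Kmt2b, Kmt2c, Kmt2d, Setd1a, Setd1b) and 4 demethylase genes (Kdm1a, Kdm1b, Kdm5a, Kdm5b), out of 51734 genes counted in each library. They were chosen by name because their products set the H3K4 state that ADD domains read, and all 10 were found in every one of the 52 single-oocyte libraries and passed the filter on low counts. The study substituted residues in the ADD domain (the ATRX-DNMT3-DNMT3L histone-binding domain) of the DNA methyltransferase DNMT3A and of its inactive partner DNMT3L. Fully grown oocytes (FGOs, the germinal-vesicle oocytes that have finished growth) came from adult ovaries of females aged 10 to 12 weeks. The FGO libraries numbered 18 for wild type, 8 for Dnmt3L ADD/ADD (labelled Dnmt3a+/+Dnmt3LD124A/D124A, homozygous for the DNMT3L substitution D124A), 8 for Dnmt3a ADD/ADD (labelled Dnmt3aADA/ADADnmt3L+/+) and 8 for the double mutant, homozygous for both. A further 10 libraries came from wild-type MII oocytes (ovulated oocytes arrested in the second meiotic division), whose age the labels do not give. For MII oocytes used in fertilization, the study's methods describe females injected with inhibin antiserum and human chorionic gonadotropin. Their age range matched that of the FGO females only in part, and no injection is described for FGOs. If these MII oocytes were obtained likewise, stage and treatment cannot be told apart. The substitutions are carried in the germ line, so the cells around the oocyte carried them as well, and they cannot be seen in counts per gene, so the genotype labels could not be checked against these data. The labels do not say which oocytes came from the same female, and p-values therefore measure only the spread between these libraries.

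H3K4 methylation is laid down by large complexes built around 1 of the 6 catalytic subunits. SETD1A and SETD1B sit in the complexes that deposit most H3K4 trimethylation at active promoters, KMT2A and KMT2B in complexes recruited to CpG-rich promoters, and KMT2C and KMT2D in complexes that monomethylate enhancers. KDM1A (LSD1) and KDM1B (LSD2) are flavin-dependent enzymes that remove mono- and dimethylation, whereas KDM5A and KDM5B remove di- and trimethylation. In growing oocytes KMT2B is known as the main source of broad H3K4 trimethylation, and KDM1B is needed to clear H3K4 methylation from many maternally imprinted regions before they gain DNA methylation. The ADD domain binds the H3 tail when lysine 4 is unmethylated.

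Promoters were available from RefSeq for 7 of the 10 genes, as windows from 250 bases before to 50 bases after the transcription start on GRCm38.p6, the assembly that mm10 represents. The windows of Kdm1b (chr13:47043249-47043548, plus strand), Kdm1a (chr4:136602674-136602973, minus strand) and Kmt2d (chr15:98871156-98871455, minus strand) are shown because the 2 paralogous demethylase genes differed in their pattern across the oocytes, and Kmt2d and Kdm1a were both lower in 1 of 2 technical classes of wild-type FGOs described below. Capitals mark each CG dinucleotide, the motif counted, which reads the same on both strands.
Kdm1b: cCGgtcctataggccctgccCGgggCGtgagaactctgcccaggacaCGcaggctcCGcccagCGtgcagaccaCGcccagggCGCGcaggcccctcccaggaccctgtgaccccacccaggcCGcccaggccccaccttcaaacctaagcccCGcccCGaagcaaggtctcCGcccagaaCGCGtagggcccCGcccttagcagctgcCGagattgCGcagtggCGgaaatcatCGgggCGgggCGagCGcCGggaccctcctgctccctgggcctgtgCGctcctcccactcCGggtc
Kdm1a: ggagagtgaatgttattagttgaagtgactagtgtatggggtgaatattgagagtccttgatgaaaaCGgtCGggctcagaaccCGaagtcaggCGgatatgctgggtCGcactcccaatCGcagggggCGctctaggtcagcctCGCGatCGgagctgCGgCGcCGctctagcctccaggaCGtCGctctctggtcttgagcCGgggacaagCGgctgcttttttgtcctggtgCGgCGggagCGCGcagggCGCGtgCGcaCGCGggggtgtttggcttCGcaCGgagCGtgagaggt
Kmt2d: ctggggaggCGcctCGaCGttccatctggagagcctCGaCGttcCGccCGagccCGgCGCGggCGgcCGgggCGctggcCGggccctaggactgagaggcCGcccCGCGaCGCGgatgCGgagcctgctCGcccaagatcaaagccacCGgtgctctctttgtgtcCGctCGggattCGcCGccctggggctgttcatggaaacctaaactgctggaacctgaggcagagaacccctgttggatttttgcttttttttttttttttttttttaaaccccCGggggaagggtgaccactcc
The Kdm1b window held 26 CG dinucleotides, and 16.9% of all 32851 promoter windows of the same length held at least as many. The Kdm1a window held 29 (12.9% of windows with at least as many) and the Kmt2d window 27 (15.5%). Among the other windows, Kmt2c had 56, Kmt2a 36, Setd1a 35 and Kdm5b 17, against a median of 7 over all windows.

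The oocyte libraries held 7832458 to 23739871 counted reads, and 18476 to 25859 genes with at least 1 count. By the sequencing summary of the study, the libraries fell into 2 classes by the share of reads mapped, under 80% or at least 80%. Both classes occurred among wild-type FGOs (8 and 10 libraries), Dnmt3a ADD/ADD FGOs (3 and 5) and MII oocytes (3 and 7), but all 8 Dnmt3L ADD/ADD libraries were in the upper class and all 8 double mutant libraries in the lower. Between the 2 classes of wild-type FGOs, 3 of the 10 genes differed at an adjusted p under 0.05 (25.4% of all genes tested did): Kmt2b, Kmt2d and Kdm1a were lower in the class under 80%, by log2 differences of -0.29, -0.18 and -0.26. For the 10 genes, results below are therefore also given within a class where this changed a call. Calls for genes of other lists come from the main fits only and were not checked within a class. The 12 oocyte markers summed to 7701 to 11747 CPM (read counts divided by the TMM-scaled library size) in wild-type FGOs, and none was at 0 in any group. The 30 markers of granulosa, theca, stroma, endothelium and blood summed to 224 to 450 CPM in wild-type FGOs, 219 to 284 in Dnmt3L ADD/ADD, 223 to 379 in Dnmt3a ADD/ADD, 202 to 216 in double mutant FGOs and 206 to 228 in MII oocytes. The theca and interstitial markers in that sum moved most, from 14.6 to 148 CPM in wild-type FGOs to 2.09 to 6.06 CPM in double mutant FGOs and 2.18 to 12.5 CPM in MII oocytes.

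In wild-type FGOs the 10 genes spanned more than 2 orders of magnitude in level per gene length (RPKM, from TMM-scaled CPM and the exon length in the files). Kdm1b stood first at 97.5 ± 26.6 RPKM (mean ± SD, n = 18), above 97.7% of all genes tested. Kmt2d (74.3 ± 6.81 RPKM) and Kmt2c (73.9 ± 3.64 RPKM) followed, and those 2 enhancer methyltransferases made up 66.6 to 69.7% of the summed RPKM of the 6 methyltransferase genes in every wild-type FGO. Kmt2b came next at 40.3 ± 5.22 RPKM, then Kdm1a at 19.1 ± 2.28, Setd1b at 17.98 ± 2.31 and Setd1a at 11.2 ± 0.901. The remaining 3 were low. Kdm5a had 1.17 ± 0.781 RPKM, Kdm5b 0.487 ± 0.146 and Kmt2a 0.392 ± 0.254, the last above only 14.3% of genes tested. Kmt2a and Kmt2b, a pair of close paralogs, thus differed widely in level within the same cells.

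**Figure D1:**
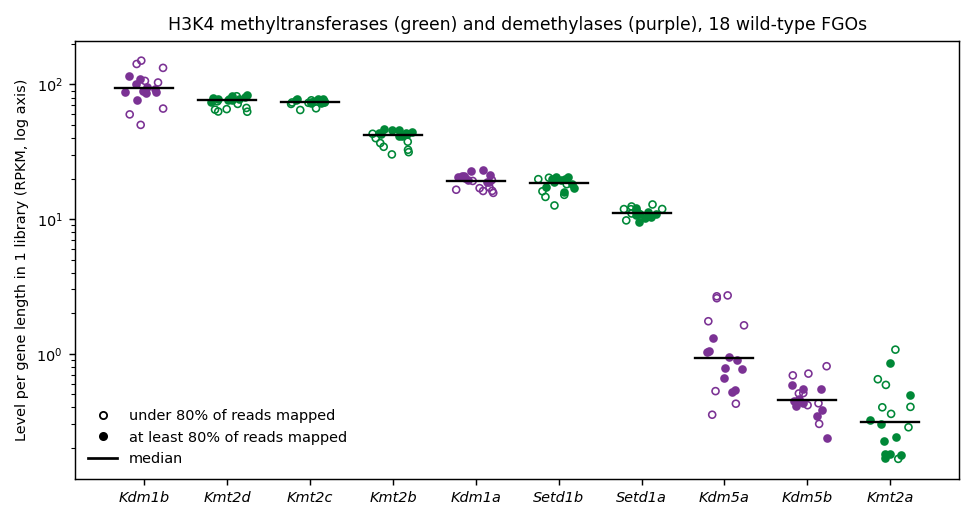
Level per gene length (RPKM, log axis) of each gene in each of 18 wild-type FGO libraries, ordered by the mean log2 level. Each point is 1 library, open where under 80% of reads mapped, and the bar is the median. Kdm5a, Kdm5b and Kmt2a lie below every other gene in all libraries.

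Of the 9 neighbouring pairs in this order, 7 differed within libraries (paired two-sided permutation test with 100000 resamples, adjusted p under 0.05 over the 9 pairs). Kdm1b exceeded Kmt2d in 14 of 18 FGOs, by a log2 ratio of 0.34 ± 0.50 (SD, n = 18, adjusted p = 0.0147). Kmt2d and Kmt2c could not be ordered, with a log2 ratio of 0.00472 ± 0.14 and 9 FGOs on each side (adjusted p = 0.89), nor could Kdm1a and Setd1b (0.09 ± 0.25, 12 of 18 FGOs, adjusted p = 0.149). The widest step lay between Setd1a and Kdm5a, with a log2 ratio of 3.52 ± 0.90 and the same direction in 18 of 18 FGOs (adjusted p = 6e-05). The order depends in part on gene length. With the longest protein-coding transcript of GENCODE M21 in place of the exon length in the files, Kmt2c moved to the front (100.2 RPKM against 94.4 for Kdm1b), ahead of Kdm1b in 12 of 18 FGOs (adjusted p = 0.174). The exons of Setd1a shared 52.3% of their bases with 9430064I24Rik, an antisense gene, and with an entry named SETD1A, none of which exceeded 3 counts in a library. Over its 3243 unshared exon bases alone Setd1a would have 23.4 RPKM and stand above Kdm1a and Setd1b, so its place in the order is uncertain, and its comparisons between groups rest on whichever reads the authors' counting assigned. For the other 9 genes at most 2.27% of exon bases were shared.

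**Figure D2:**
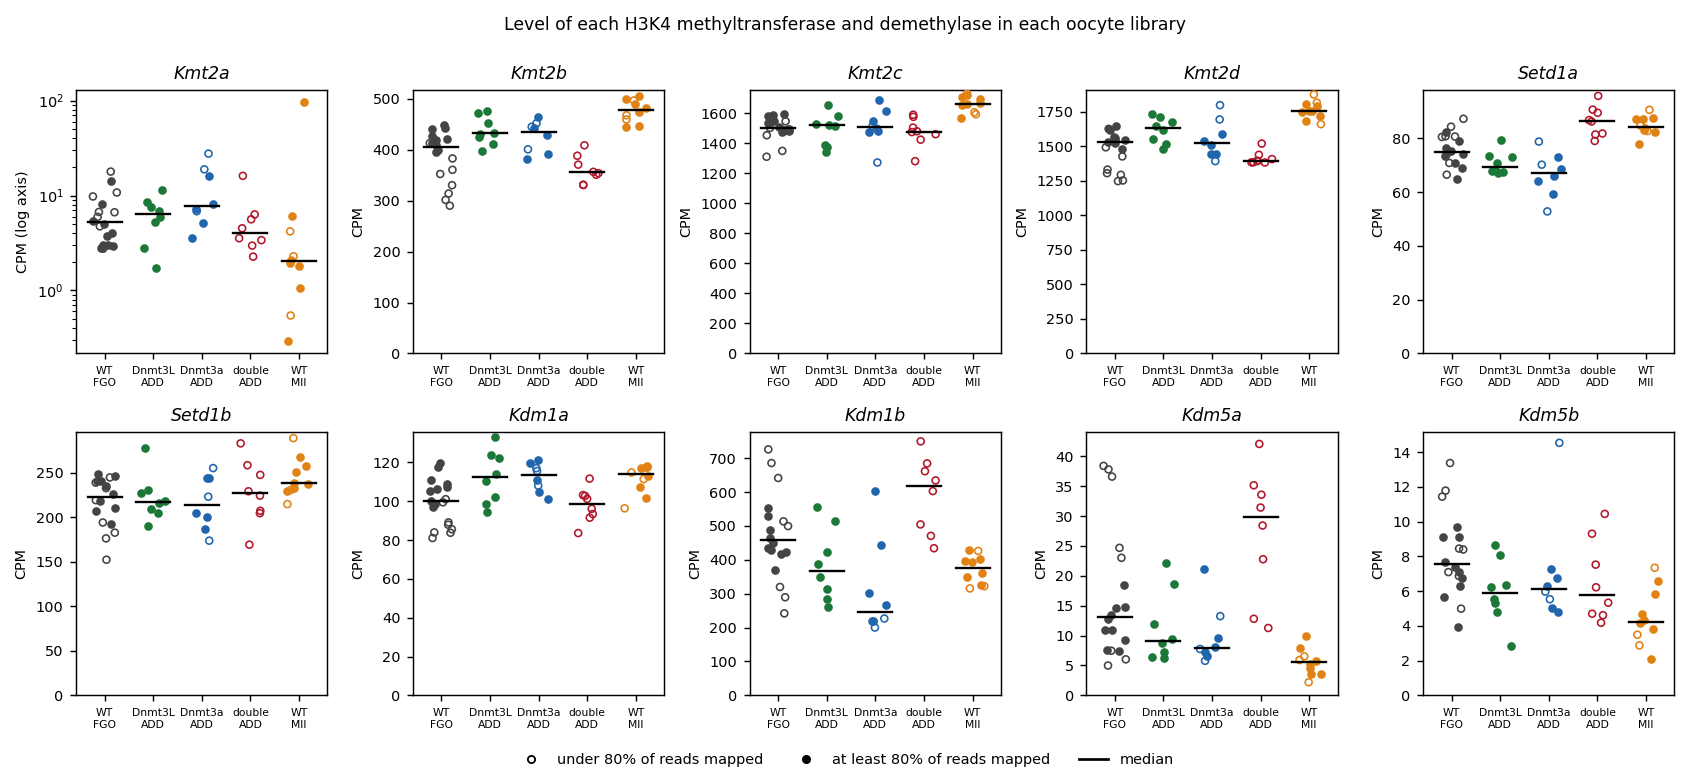
CPM of each gene in each library, for the 4 FGO genotypes and for MII oocytes, on linear axes from 0 except for Kmt2a (log axis). Each point is 1 library, open where under 80% of reads mapped, and the bar is the median. Kdm1b and Kdm5a have their highest medians in double mutant FGOs, while Kmt2b, Kmt2c and Kmt2d lie highest in MII oocytes.

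In Dnmt3L ADD/ADD FGOs none of the 10 genes differed from wild type at an adjusted p under 0.05 in edgeR, where 6.13% of all genes tested did (3.07% higher and 3.06% lower, 0.655% by more than 2-fold), and DESeq2 called none either. At an unadjusted p under 0.05 there were 4, namely Kmt2b, Kmt2d and Kdm1a with higher estimates and Kdm5b with a lower one. The share of all genes below that unadjusted threshold was not counted, so these 4 cannot be set against the 6.13%. Kmt2b ran from 397 to 476 CPM (median 432) in mutant FGOs and from 290 to 449 CPM (median 404) in wild type. The mutant values overlapped the upper wild-type range, 7 of 8 lying above the wild-type median (log2 fold change 0.18, SE 0.06, adjusted p = 0.0854). Against the 10 wild-type FGOs of the same mapping class, the estimate for Kmt2b was 0.06 (adjusted p = 0.527), and those for Kmt2d and Kdm1a were 0.05 (0.501) and 0.07 (0.534), whereas against the 8 wild-type FGOs of the other class these 3 genes were called at 0.35, 0.24 and 0.34. Kdm1b ranged from 261 to 557 CPM (median 368) in the mutant against 242 to 726 (median 457) in wild type, a log2 fold change of -0.29 with a 95% interval of -0.63 to 0.06. Kmt2c was measured most tightly, with an interval of -0.10 to 0.08.

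In Dnmt3a ADD/ADD FGOs 3 of the 10 genes passed the test, where 15.7% of all genes tested did (8.06% higher and 7.61% lower). Kdm1b and Setd1a were lower and Kdm1a was higher, none by more than 2-fold, as 2.05% of genes tested were. Kdm1b ranged from 200 to 604 CPM with a median of 247, against 242 to 726 CPM and a median of 457 in wild type. Of the 8 mutant FGOs, 7 lay below the wild-type median and 4 below the lowest wild-type FGO, and replicate 4 was the highest (1.52-fold lower on average, log2 fold change -0.60, SE 0.17, adjusted p = 0.0154). Without replicate 4 the log2 fold change of Kdm1b was -0.83 (adjusted p = 0.000764), and Kdm5a, the KDM5-family demethylase, passed the test as well (-1.01, adjusted p = 0.0352, against -0.74 and 0.118 with it). Kdm5a ran from 5.77 to 21.2 CPM (median 7.92) in these mutants and from 4.99 to 38.4 CPM (median 13.1) in wild type, so the ranges overlapped throughout.

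Setd1a ran from 52.8 to 78.8 CPM (median 67.2) in Dnmt3a ADD/ADD FGOs and from 65.0 to 87.3 CPM (median 75.0) in wild type, with 3 mutant FGOs below the wild-type range (log2 fold change -0.19, SE 0.05, adjusted p = 0.0156). Kdm1a ran from 101 to 121 CPM in the mutant and from 81.1 to 120 CPM in wild type, and all 8 mutant values lay above the wild-type median (0.18, SE 0.07, adjusted p = 0.049). Kdm1a passed in 7 of 13 alternative analyses, with estimates from 0.06 to 0.34, and Setd1a in 11 of 13, from -0.24 to -0.15. These small differences stayed within the wild-type range for most oocytes. Kmt2a, the least abundant of the 10, had the largest estimate, 0.84 (SE 0.35, adjusted p = 0.0868), from 3.58 to 27.7 CPM against 2.76 to 17.9. When only the 5 mutant and 10 wild-type libraries with at least 80% of reads mapped were compared, none of the 3 calls remained: Kdm1b was at -0.31 (adjusted p = 0.267), Setd1a at -0.16 (0.108) and Kdm1a at 0.06 (0.55). These 5 mutant libraries included replicate 4, the highest for Kdm1b (604 CPM). The median of Kdm1b was 302 CPM in these 5 and 441 CPM in the 10 wild-type FGOs. Of the 12 oocyte markers 7 were also lower in these FGOs, as were 7.61% of all genes tested, and their part in the result was not tested.

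Double mutant FGOs showed 1 of the 10 genes past the test, where 12.2% of all genes tested passed (5.51% higher and 6.74% lower, 1.65% by more than 2-fold). Setd1a ran from 79.0 to 95.8 CPM (median 86.5), above the wild-type median in all 8 FGOs and above the highest wild-type FGO in 3 (1.13-fold higher, log2 fold change 0.18, SE 0.05, adjusted p = 0.0232). Against the 8 wild-type FGOs of the same mapping class the difference was 0.14 (adjusted p = 0.379). Kdm5a had the largest estimate, 0.70 (SE 0.30, adjusted p = 0.117), with 11.3 to 42.1 CPM and a median of 29.9 against 13.1 in wild type, and 6 of 8 values above the wild-type median. Kdm1b ran from 434 to 750 CPM (median 619), and 7 of 8 values lay above the wild-type median of 457 (0.32, SE 0.17, adjusted p = 0.191). Both demethylase genes therefore had higher medians in the double mutant without passing the test. Within the class under 80% the estimates shrank to 0.27 for Kdm5a (adjusted p = 0.853) and 0.27 for Kdm1b (0.717), while against the other class of wild-type FGOs Kdm5a was called at 1.17 (adjusted p = 0.000488), with Kmt2b at -0.22 and Kmt2d at -0.15. Summed theca and interstitial markers were at most 6.06 CPM in the double mutant and at least 7.86 CPM in every other FGO. With the summed level of all 30 somatic markers as a covariate Setd1a was at 0.10 (adjusted p = 0.273). That level was 202 to 216 CPM in the double mutant and 224 to 450 CPM in wild type, without overlap, so this fit separates it poorly from the genotype.

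**Figure D3:**
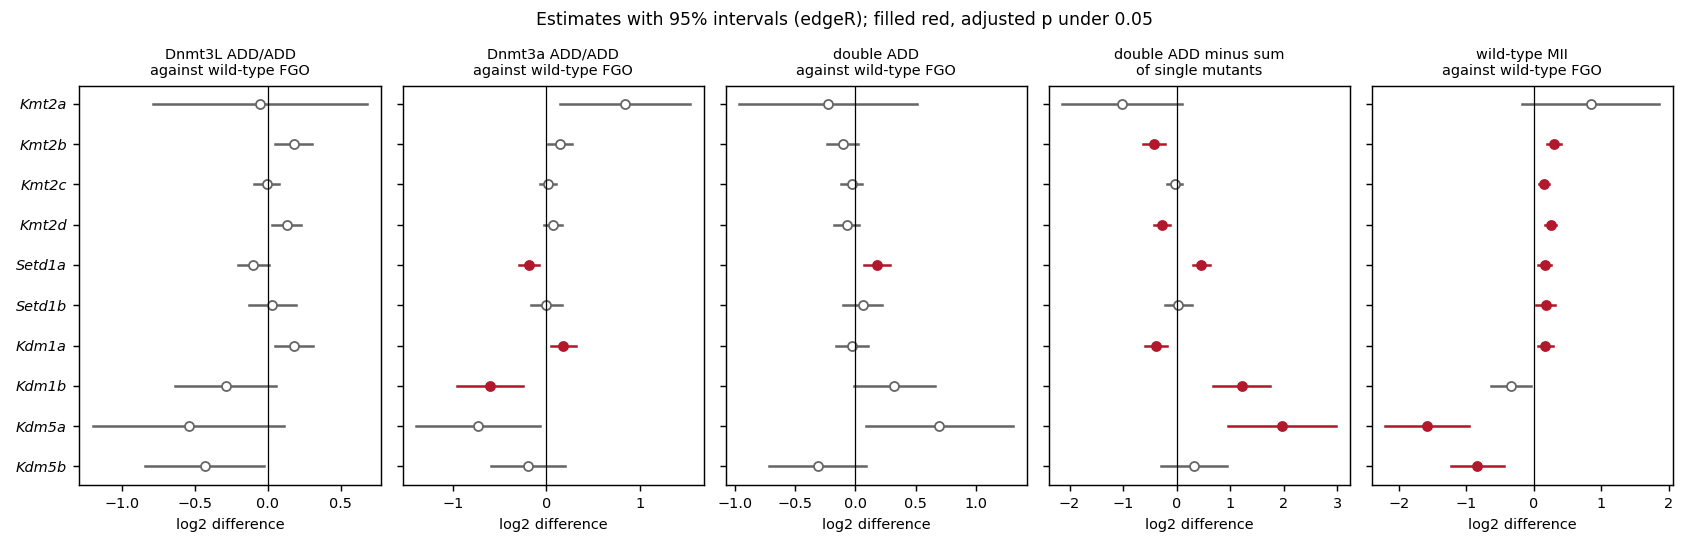
Estimates (points) and 95% intervals (lines) of the log2 difference for each gene in the 5 comparisons, from the edgeR fits, with a separate horizontal scale in each panel. Filled red points passed an adjusted p of 0.05. The double mutant minus the sum of the single mutants gives the largest positive estimates for Kdm1b (1.22) and Kdm5a (1.98), and MII oocytes the lowest for Kdm5a (-1.58).

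The 3 mutant genotypes share the same 18 wild-type libraries, and Kdm1b and Kdm5a had estimates below 0 in both single mutants and above 0 in the double mutant. The difference was tested as the departure of the double mutant from the sum of both single effects on the log2 scale, which used all 4 genotypes. It passed for 6 of the 10 genes, where 35.6% of all genes tested passed (19.3% above and 16.3% below the sum, 10.3% by more than 2-fold). Kdm5a departed by 1.98 (SE 0.50, adjusted p = 0.00215), Kdm1b by 1.22 (SE 0.27, adjusted p = 0.000515) and Setd1a by 0.47 (SE 0.08, adjusted p = 4.7e-05), all above the sum. Kmt2b (-0.42, adjusted p = 0.00104), Kmt2d (-0.27, adjusted p = 0.00544) and Kdm1a (-0.39, adjusted p = 0.00279) lay below it. The demethylase genes KDM1A and KDM1B belong to the same enzyme family, yet their genes departed in opposite directions. The mapping classes were spread unevenly over the 4 genotypes, so these departures also carry differences between the classes. With the mapping class as a covariate, 14.2% of all genes tested passed. Kdm1b (1.39, adjusted p = 0.00368) and Setd1a (0.40, adjusted p = 0.00467) stayed past the test, and Kmt2a passed at -1.81 (0.0382). Kdm5a (1.24, adjusted p = 0.153), Kmt2b (-0.22, 0.132), Kmt2d (-0.17, 0.175) and Kdm1a (-0.20, 0.197) did not pass. No Dnmt3L ADD/ADD library was in the lower class and no double mutant library in the upper. The class term was thus estimated from wild-type and Dnmt3a ADD/ADD FGOs alone. For the other genotypes it could not be checked, so this fit separates class from genotype poorly. Of the 12 oocyte markers 11 also lay above the sum, as did 19.3% of all genes tested, and their part in the result was not tested.

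Wild-type MII oocytes differed from wild-type FGOs in 8 of the 10 genes, where 39.1% of all genes tested differed, 16.5% higher and 22.6% lower. Of the methyltransferase genes 5 of 6 were higher, each by 1.11- to 1.23-fold, and both KDM5 genes among the 10, Kdm5a and Kdm5b, were lower. Values are shares of the counted messages in a library, not amounts per oocyte. The differences between the stages, higher or lower, therefore cannot be read as changes in the amount of a message. Kmt2d ran from 1660 to 1875 CPM (median 1754) in MII oocytes, above all 18 wild-type FGOs (1248 to 1649 CPM, median 1528), 1.19-fold higher (log2 fold change 0.25, SE 0.04, adjusted p = 3.49e-06). Kmt2b, the oocyte H3K4 trimethylase, ran from 445 to 506 CPM, above the FGO maximum of 449 in 8 of 10 oocytes (0.30, SE 0.05, adjusted p = 1.3e-05). Kmt2c reached 1570 to 1732 CPM against 1311 to 1595, also above the FGO maximum in 8 of 10 (0.15, SE 0.04, adjusted p = 0.000901). These 3 methyltransferase genes kept their direction and their call when only libraries with at least 80% of reads mapped were used in both groups, at 0.15, 0.17 and 0.11 for Kmt2d, Kmt2b and Kmt2c. Setd1a (0.16, adjusted p = 0.00496) and Setd1b (0.18, adjusted p = 0.0421), the catalytic subunits of the promoter complexes, were higher as well, as was Kdm1a (0.17, adjusted p = 0.0139), with ranges that overlapped those of FGOs. Within that class Setd1b was at 0.10 (adjusted p = 0.133) and Kdm1a at 0.07 (0.306). When libraries were scaled by total counts, the median of all genes in the comparison was at -0.11 instead of -0.05, and of the 5 methyltransferase genes only Kmt2b and Kmt2d passed.

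Kdm5a ran from 2.19 to 9.99 CPM (median 5.53) in MII oocytes, with all 10 values below the FGO median of 13.1 and 4 below the lowest FGO (2.99-fold lower, log2 fold change -1.58, SE 0.31, adjusted p = 6.6e-05). Kdm5b ran from 2.10 to 7.34 CPM (median 4.25) against 3.91 to 13.4 (median 7.53), again with all 10 below the FGO median (1.78-fold lower, -0.84, SE 0.19, adjusted p = 0.000603). The difference of Kdm5a was thus the only one among the 10 above 2-fold, as were 9.2% of all genes tested. In libraries with at least 80% of reads mapped the values were -1.05 (adjusted p = 0.000914) for Kdm5a and -0.71 (0.00959) for Kdm5b. Both genes had few reads, at least 22 for Kdm5a and 29 for Kdm5b in an MII library. Kdm5c, outside the 10 genes, was more abundant and did not pass. Its median was 86.9 CPM in MII oocytes and 90.8 CPM in wild-type FGOs. Kdm1b ran from 316 to 429 CPM (median 377), with all 10 oocytes below the FGO median of 457 but within the FGO range (-0.34, SE 0.15, adjusted p = 0.0615), and it passed within the upper mapping class (-0.28, adjusted p = 0.0048). Somatic markers were lower in MII oocytes (7 of 10 granulosa and cumulus and 5 of 5 tested theca and interstitial genes passed). With the summed somatic level as a covariate 3 of the 10 genes passed, with Kdm5b at -0.29 (adjusted p = 0.393). The summed level barely overlapped between the stages (206 to 228 CPM in MII oocytes, 224 to 450 CPM in wild-type FGOs), so this fit separates it poorly from the stage.

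Kmt2a in MII oocytes was decided by 1 library. Its level was 96.6 CPM in replicate 4 and 0.29 to 6.04 CPM in the other 9, against 2.76 to 17.9 CPM in FGOs, and 7 of 10 MII oocytes lay below the FGO range. With all libraries the log2 fold change was 0.84 (SE 0.51, adjusted p = 0.188). Without replicate 4 it was -1.53 (SE 0.40, adjusted p = 0.00257).

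Among FGOs, Kdm1b and Kdm5a varied together. In the 8 wild-type FGOs with under 80% of reads mapped, 3 had 242 to 320 CPM of Kdm1b and 4.99 to 7.47 CPM of Kdm5a, and the other 5 had 500 to 726 CPM of Kdm1b and 23.0 to 38.4 CPM of Kdm5a, with no library between. These 2 clusters preclude a single correlation there. In the 10 wild-type FGOs of the other class Pearson's r of log2 CPM was 0.90 (Spearman's rho 0.93, and r 0.84 without the 2 libraries farthest from the median of Kdm1b), and in the 8 double mutant FGOs it was 0.97 (rho 1, 0.99 without 2). In Dnmt3L ADD/ADD FGOs r was 0.87 (n = 8). In Dnmt3a ADD/ADD FGOs r was 0.49 (n = 8) and became -0.63 without the 2 farthest libraries, and in MII oocytes it was 0.42 (n = 10). The points of a group are libraries of differing depth, and these coefficients are descriptions. Kmt2b and Kmt2d had r of 0.91 in the lower class of wild-type FGOs (n = 8) and 0.64 in the upper (n = 10, 0.25 without 2). In the lower class Kmt2d and Kdm1a had 0.93, Setd1b and Kdm1b 0.89 and Kmt2b and Kdm1a 0.88 (n = 8 each). In the upper class the same pairs had -0.48, 0.05 and 0.18 (n = 10 each). Negative values as large also occurred in the lower class, as for Kmt2b and Kdm1b (-0.94, against 0.34 in the upper). The 2 clusters of Kdm1b also enter the lower-class values of its pairs.

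**Figure D4:**
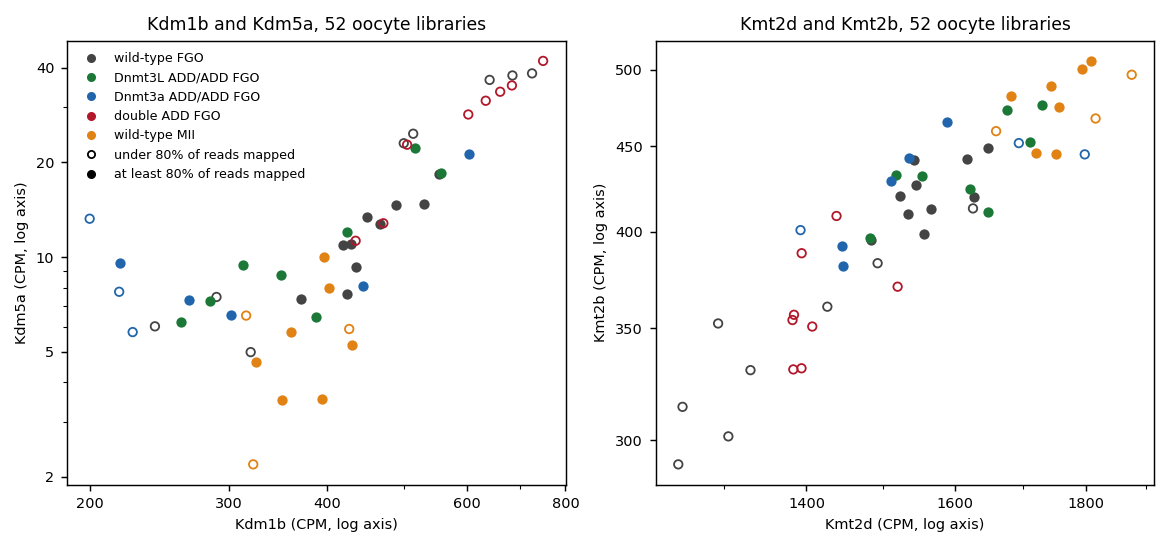
CPM (log axes) of Kdm1b against Kdm5a, left, and of Kmt2d against Kmt2b, right, in 52 oocyte libraries coloured by group. Each point is 1 library, open where under 80% of reads mapped. Kdm1b and Kdm5a rise together in most FGOs, up to 750 CPM of Kdm1b and 42.1 CPM of Kdm5a, and the Dnmt3a ADD/ADD library with the least Kdm1b (200.1 CPM) has 13.2 CPM of Kdm5a.

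Summed per gene length, the 6 methyltransferase genes reached 195 to 234 RPKM in wild-type FGOs and 242 to 262 RPKM in MII oocytes. The 4 demethylase genes summed to 70.6 to 169 RPKM in wild-type FGOs, of which Kdm1b made up 71.0 to 88.7%. The ratio of the sums was 1.96 at the median of wild-type FGOs (1.17 to 3.04), 2.97 in Dnmt3a ADD/ADD (1.48 to 3.57), 2.31 in Dnmt3L ADD/ADD (1.75 to 2.93), 1.48 in double mutant FGOs (1.16 to 1.96) and 2.52 in MII oocytes (2.30 to 3.00). The genotypes overlapped in this ratio, and Kdm1b made up 63.2 to 85.4% of the demethylase sum in Dnmt3a ADD/ADD and 81.0 to 87.6% in double mutant FGOs.

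In the mutants against wild type, no gene of the partner proteins passed with a change over 2-fold. Calls for partner genes come from the main fits, without the mapping class. None of the 4 core subunits that all 6 methyltransferases share (Wdr5, Rbbp5, Ash2l, Dpy30) passed in Dnmt3L ADD/ADD or double mutant FGOs, and 2 were higher in Dnmt3a ADD/ADD FGOs (8.06% of all genes tested were), Ash2l (0.20, adjusted p = 0.0384) and Dpy30 (0.21, adjusted p = 0.0173). Of the subunits of particular complexes, 10 of 11 could be tested, since Pagr1a had no counts in wild-type FGOs. Of these 10, 2 were higher in Dnmt3a ADD/ADD, where 8.06% of all genes tested were. Cxxc1, which encodes the CpG-binding subunit of the SETD1 complexes, was 1 of them (0.27, adjusted p = 0.0106). Bod1l was lower in the double mutant (-0.38, adjusted p = 0.0122), as were 6.74% of all genes tested. In the departure from the sum of single effects, which 35.6% of all genes tested showed, 3 of the 4 core subunits (Wdr5, Ash2l, Dpy30) and 3 of these 10 (Cxxc1, Bod1l, Paxip1) lay below the sum, with log2 departures of -0.28, -0.32, -0.39, -0.58, -0.60 and -0.24 in that order. In MII oocytes, where 16.5% of all genes tested were higher, 5 of these 10 were higher, with the lowest adjusted p for Ncoa6, a subunit of the KMT2C and KMT2D complexes (0.28, adjusted p = 1.11e-07), and Bod1l was lower (-0.41, adjusted p = 0.000165), and 3 of the 4 core subunits were higher. None of these MII differences reached 2-fold.

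Among the 12 partners of KDM1A and KDM1B, Hmg20b, which encodes an HMG-box subunit of the KDM1A complex, was higher in Dnmt3L ADD/ADD (0.56, adjusted p = 0.000102) and in Dnmt3a ADD/ADD FGOs (0.45, adjusted p = 0.000574). Hdac1, a deacetylase of the same complex, was lower in Dnmt3a ADD/ADD (-0.73, adjusted p = 0.00964), as was its paralog Hdac2 by a smaller amount (-0.10, adjusted p = 0.0499). The departure from the sum of single effects passed for 6 of the 12 against 35.6% of all genes tested, 3 above and 3 below the sum, and was past 2-fold for Hdac1 alone (1.14, adjusted p = 0.00284). In MII oocytes 4 of the 12 were higher, against 16.5% of all genes tested, among them Rcor2 (0.36) and Gse1 (0.32, adjusted p = 0.000313), and Rcor3 was lower (-0.53, adjusted p = 0.00639). Of the genes of ADD-domain proteins, Dnmt3a, Dnmt3b, Dnmt3l and Atrx, none passed in any mutant genotype against wild type. Dnmt3b (-0.39, adjusted p = 0.0151) and Atrx (-0.40, adjusted p = 0.00795) lay below the sum of single effects in the double mutant, and in MII oocytes Dnmt3l was higher (0.24, adjusted p = 0.0131) and Atrx lower (-0.21, adjusted p = 0.0138).

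For each of the 10 genes the gene outside these lists with the most similar profile was sought by Pearson's r of log2 CPM over all 52 libraries. Kdm5a was most like Mier1 (r = 0.96), Kdm1b like B3galnt1 (0.94), and Kmt2b and Kmt2d both like Ell (0.94 and 0.92). Kmt2c was closest to Slc39a6 (0.82), Kdm1a to Ino80e (0.81), Setd1a to Mapk3 (0.78), Kdm5b to Slc38a2 (0.74) and Setd1b to Hipk2 (0.73). Kmt2a had no close match, its best being Ttc21b at 0.59. All points share libraries, depth and group differences, so these values are descriptions of likeness.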

How the data were processed

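Single-oocyte mRNA-seq libraries were grouped by their labels, and replicates were taken from the titles. Per the labels and the study's methods, the authors aligned reads to mm10 with STAR and deposited raw read counts per gene with exon lengths (featureCounts, HTSeq also named), and the annotation release and strand setting are not given in the sources used here. The 10 genes and all lists were chosen with earlier results of these data known. From the deposited counts, edgeR 4.0.16 under R 4.3.3 was used for the quasi-likelihood test, with TMM scaling and filterByExpr (minimum count 10), and p-values were adjusted over all genes tested (Benjamini-Hochberg, threshold 0.05). FGOs were fitted together (42 libraries, 15726 genes), MII oocytes in a fit of 52 libraries (15784 genes). The common biological coefficient of variation was 25.2% and 23.8%, above counting error at these depths. DESeq2 1.42.0, other scalings, filters, covariates and subsets of libraries were alternatives. No 2 libraries of a group agreed within sampling noise. The fits were tested on simulated data. Levels per length, orders and correlations were computed in Python 3.11.15 with numpy 2.4.6 and scipy 1.17.1. Named genes were the 10 genes in every comparison, and of other lists those past 2-fold or with the lowest adjusted p. Some genes of other lists that passed the test were also named, a choice made after their values were seen, and others that passed were only counted. Allelic embryo tables were not used here. For 1 gene in the list of KDM1A and KDM1B partners, results are not reported here.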

Additional observations from a re-analysis of the deposited data

Results flagged for a closer look

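Among 40 sets of 8 or 10 libraries (10 genes in 4 groups), 5 held a library far from the others, where chance gives about 1 in 20. Kmt2a was at 96.6 CPM in MII replicate 4, with the next at 6.04 CPM, and at 16.1 CPM in double mutant replicate 4, with the next at 6.33 CPM. Kdm5b was at 14.5 CPM in Dnmt3a ADD/ADD replicate 8 (next 7.27 CPM). Kmt2d was at 1519 CPM in double mutant replicate 5 (next 1438 CPM) and Setd1b at 278 CPM in Dnmt3L ADD/ADD replicate 2 (next 230.2 CPM).

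The non-additive contrast passed for 6 genes, where 35.6% of all genes tested passed. The mapping classes were spread unevenly over the genotypes, so this contrast also carries differences between the classes. With the mapping class as a covariate, 14.2% of all genes tested passed, and 4 of the 6 (Kdm5a, Kmt2b, Kmt2d and Kdm1a) did not. That fit separates class from genotype poorly, since Dnmt3L ADD/ADD and double mutant FGOs each lay in a single class. Without the covariate the log2 departures of the 6 were 1.98 for Kdm5a, 1.22 for Kdm1b, 0.47 for Setd1a, -0.27 for Kmt2d, -0.39 for Kdm1a and -0.42 for Kmt2b.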

How the results depend on the processing

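The number of the 10 genes called changed with the processing, as did the share of all genes called, given in brackets, and the cause was not tested. In Dnmt3L ADD/ADD it was 0 (6.13%), but 1 (6.45%) with total counts only, 3 (18%) with the replicate block and 3 (22%) against wild-type FGOs with under 80% mapped reads. In Dnmt3a ADD/ADD it was 3 (15.7%), but 0 with a fold change over 2 as well, 6 (26.1%) with the replicate block, 6 (28.8%) against wild-type FGOs with under 80% mapped reads and 0 (9.24%) with only libraries of at least 80% in both groups. It was 2 with total counts only, no filter, the 2 groups alone in the fit or the somatic level as a covariate (chosen after seeing the data), in each of which Kdm1a lost its call, and 2 against wild-type FGOs of at least 80%. In the double mutant it was 1 (12.2%), but 0 with a fold change over 2, with no filter (2.89%), with the replicate block (1.44%), with wild-type FGOs under 80% only (1.43%), with the mapping class as a covariate (2.61%) and with the somatic covariate (9.52%), and 4 (37.8%) against wild-type FGOs of at least 80%. The non-additive count was 6 (35.6%), but 2 with a fold change over 2 and 3 (14.2%) with the class as a covariate. In MII oocytes it was 8 (39.1%), but 1 with a fold change over 2, 5 (37.5%) with total counts only and 3 (13.3%) with the somatic covariate, and 6 to 9 in the other alternatives, where Setd1a, Setd1b and Kdm1a lost calls and Kdm1b gained them. Kmt2a turned from 0.84 to -1.53 without MII replicate 4, also chosen after seeing the data. Of the 9 neighbouring pairs in the order of levels 7 were called, and 4 among wild-type FGOs under 80%. Depth limits Kmt2a, which had as few as 4 reads in an MII library. DESeq2 gave the same counts as edgeR in all 5 comparisons. Replicate numbers did not pair the libraries (82 same-numbered pairs, r of deviations -0.51 to 0.47, median -0.02, 14 over 0.1). Wild-type FGO replicates 1 to 8 were all under 80% and 9 to 18 all at least 80%, while mutants were numbered 1 to 8. Among FGOs the replicate block thus compared mutants with wild-type replicates 1 to 8 only. It is therefore no separate check from the subset of wild-type FGOs under 80%.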

Other observations

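Kdm5d, a Y-linked gene, was listed at 4.96 to 10.2 CPM in wild-type FGOs, at least 67 reads in each library, beside 75.6 to 119 CPM of its X-linked paralog Kdm5c. Females carry no Y chromosome, so the reads listed under Kdm5d cannot be taken as expression of that gene. Reads of the 2 paralogs can be exchanged in counting, so the level of Kdm5c is uncertain too. The count listed under Kdm5d was 0.54 higher on the log2 scale in MII oocytes (edgeR, adjusted p = 0.000132), and the source of its reads was not tested. Kdm2b, from the list of other H3K4 demethylases, was at 422 to 807 CPM in wild-type FGOs and departed from the sum of single mutant effects by -0.64 (adjusted p = 0.000384).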
